A study of Rattus norvegicus with 55 samples.

Results

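The genes described are 112 solute carriers measured in rat kidney. Every gene was included whose single platform symbol begins with Slc and a family number, or with Slco. The same rule left out 14 carriers: Slc22a2, Slc22a6, Slc22a7, Slc34a1, Slc17a1, Slc13a1, Slc13a2, Slc13a3, Slc26a1, Slc12a1, Slc12a3, Slc8a1, Slc6a6 and Slc6a13. Each gene was represented by its probe set (the group of short DNA probes read out as a single value) with the highest mean over all arrays, and no measured difference between groups enters this rule. The 112 came from 4736 genes with a symbol of their own and carried 162 probe sets, 73 genes with 1 each and 39 with several. A filter on dim probe sets kept 96 of the 112 and 3835 of the 4736. The 16 carriers below it had group medians between 6.5 and 58.6 on an intensity scale whose overall median was 158.2.

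Solute carriers are membrane proteins that move ions, sugars, amino acids, organic acids, nucleosides and metals across cell and organelle membranes, either down a gradient or coupled to a second ion. In the kidney they sit in the brush border and the basolateral membrane of tubule cells, where they take filtered nutrients back from the urine and pass drugs and waste acids into it. The sodium gradient that many of them use is kept up by the sodium pump, Na,K-ATPase. Much of this reclaiming is done by the proximal tubule, and carriers of the Slc25 family work in the inner membrane of its many mitochondria.

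Total RNA of kidney was measured on 55 arrays, all titled as kidney of SHR (the spontaneously hypertensive rat, an inbred strain) and all described as from a Wistar-derived rat. The descriptions fall into immature (13 arrays), young (14) and mature (14) rats and a further 14 without a stage word. The labels used here give no age in days, sex, treatment or genotype for any group, and nothing says whether arrays stand for different animals. Any p-value below thus rests on the spread among arrays, which may be technical. Replicate numbers below only name arrays.

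Every array had nearly the same trimmed mean intensity, 500.2 to 500.7, and 7 of 7 kidney tubule markers, uromodulin (Umod) and the kidney androgen-regulated protein (Kap) among them, passed the filter. Clustering on the 42 control probe sets used divided the arrays into 3 technical sets, a number fixed as a setting. Set 1 held 6 immature and 4 mature arrays. Set 2 held 7 immature and 6 young ones and 6 that lack a stage word. Set 3 held 8 young and 10 mature ones and 8 that lack a stage word. Stage and set can therefore be told apart only in part, and immature and mature kidneys met only in set 1. The ratio of 3' to 5' GAPDH probe sets is a sign of RNA quality. It was 7.18 and 3.47 on mature replicates 1 and 9, both in set 3, and 0.827 to 2.62 on the other 53 arrays. Next came mature replicates 12 (2.62) and 5 (1.45), both in set 1, which stayed in the fits that left out replicates 1 and 9. The 7 immature arrays of set 2 also stood apart on an unnamed probe set (13775 to 20470 there, 17.6 to 1798 on the other 12 arrays of set 2). The probe set X56596_at, for the class II antigen gene RT1-Bb, split the arrays into 12 above an intensity of 600 (1412 to 2381, 3 in each description) and 43 below it (80.1 to 263). These sides are measured values and no label says what they are. The 6 immature and mature arrays above 600 all lay in set 1, and the 6 young and stage-less ones in set 2. Mature replicate 12, with its GAPDH ratio of 2.62, was 1 of the 3 mature arrays above 600.

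The start regions of 4 carriers are shown because these genes were higher in mature than in immature kidney both with and without a term for the technical set, and because their known functions differ (zinc, fructose, peptides and glycine). For Slc6a18 that call with the set term rests on 2 mature arrays, as described with its values. Each runs from 250 bases before to 50 after an annotated start in RefSeq, build GRCr8, 5' to 3' on the gene's strand. Capitals mark matches on either strand to 5 short patterns: GTTAAT (part of the site of the liver and tubule factor HNF1), CAAAGT (a core of HNF4 sites), TGCNCNC (the core of metal response elements), TGACNNNGC (the core of antioxidant response elements) and TGATGNAA (a core of amino acid response elements), where N is any base and no capital stretch belongs to more than 1 pattern. The windows lie at chr5:151843201-151843500, plus strand (Slc30a2), chr5:165865929-165866228, plus strand (Slc2a5), chr15:104949295-104949594, minus strand (Slc15a1) and chr1:31436403-31436702, plus strand (Slc6a18).
Slc30a2: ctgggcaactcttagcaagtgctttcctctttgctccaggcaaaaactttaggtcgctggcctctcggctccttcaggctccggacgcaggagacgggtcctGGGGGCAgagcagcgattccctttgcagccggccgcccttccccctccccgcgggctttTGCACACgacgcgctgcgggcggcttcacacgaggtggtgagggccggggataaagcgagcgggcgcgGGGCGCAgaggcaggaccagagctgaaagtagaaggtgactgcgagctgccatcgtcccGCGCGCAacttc
Slc2a5: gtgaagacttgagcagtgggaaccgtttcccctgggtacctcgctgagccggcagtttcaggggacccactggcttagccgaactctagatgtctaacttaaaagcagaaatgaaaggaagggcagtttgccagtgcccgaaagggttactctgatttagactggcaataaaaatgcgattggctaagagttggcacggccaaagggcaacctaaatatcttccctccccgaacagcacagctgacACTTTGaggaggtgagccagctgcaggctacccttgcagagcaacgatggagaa
Slc15a1: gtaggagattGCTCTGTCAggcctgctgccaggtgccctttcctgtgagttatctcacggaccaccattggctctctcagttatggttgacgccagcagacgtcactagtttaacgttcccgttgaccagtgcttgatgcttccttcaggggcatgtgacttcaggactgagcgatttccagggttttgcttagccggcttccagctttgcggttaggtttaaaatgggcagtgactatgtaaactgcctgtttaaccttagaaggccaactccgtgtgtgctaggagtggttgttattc
Slc6a18: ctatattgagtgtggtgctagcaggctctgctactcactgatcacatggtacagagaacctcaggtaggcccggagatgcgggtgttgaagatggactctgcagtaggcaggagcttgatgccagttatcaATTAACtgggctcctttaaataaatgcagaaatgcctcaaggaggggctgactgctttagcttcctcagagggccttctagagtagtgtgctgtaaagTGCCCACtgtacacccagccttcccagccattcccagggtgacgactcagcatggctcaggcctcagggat
The Slc30a2 window held 4 matches to the metal response core, and a second annotated start of that gene held none of the 5 patterns. The Slc2a5 window held a single HNF4 core, the Slc15a1 window a single antioxidant core and the Slc6a18 window an HNF1 pattern and a metal response core. Of the 112 carriers 95 matched the table, with 105 windows. The metal response core was in 62.9% of these windows and in 49.6% of all 33469 windows. The HNF4 core was in 16.2% and 14.8%, the antioxidant core in 15.2% and 12.1%, the HNF1 pattern in 5.71% and 7.45%, and the amino acid core in 2.86% and 3.98%. A match describes the letters of the window and shows no binding.

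Values below are intensities, given as the lowest to the highest array with the median. Stage differences were tested on log2(intensity + 15.82) in 1 limma fit of all 55 arrays, and a gene was called where its Benjamini-Hochberg adjusted p over all 6555 probe sets was below 0.05. In mature against immature kidney 17 of the 96 carriers rose, 17.7% beside 10.3% of all probe sets, and 9 fell, 9.38% beside 14.1%. The median change of the carriers was 0.10 on the log2 scale and that of all probe sets 0.04. Over the 4 descriptions together 33 carriers differed (34.4% beside 28.5%, moderated F test). The zinc carrier Slc30a2, the fructose carrier Slc2a5 and the peptide carrier Slc15a1 were among those that rose, while the mitochondrial carrier Slc25a26 and the bicarbonate carrier Slc4a7 were among those that fell. With the technical set as a term 12 carriers were called, 12.5% beside 12.6% of all probe sets. Of these, 9 were shared with the 26: Slc30a2, Slc2a5, Slc15a1, Slc22a5, Slc22a18, Slc6a18 and Slc25a23 rose, and Slc25a26 and Slc4a7 fell. The other 3 were Slc16a7, Slc22a13 and Slc27a1. When the 2 mature arrays with a high GAPDH ratio were left out of that fit, 19 carriers were called (19.8% beside 18.4%), of which 8 were among the 26. Slc6a18 (adjusted p = 0.059) and Slc22a18 (adjusted p = 0.052) then missed the threshold, and Slco1a1 passed it. Of the 19, 11 were not among the 26: Slc16a1, Slc16a7, Slc22a13, Slc25a30, Slc27a1, Slc2a2, Slc2a4, Slc44a4, Slc6a20a, Slc6a8 and Slco1a3. Within set 1, which holds 6 immature and 4 mature arrays, 1 carrier was called (0.717% of all probe sets). Markers of other cells moved over the same arrays: the summed intensity of 2 erythroid markers (of 4 listed, Hbb and Alas2) ran from 6820 to 14355 (median 8779) in immature and from 3915 to 8523 (median 5499) in mature kidney. That of the 7 tubule markers ran from 35131 to 56845 (median 47957) and from 30156 to 68769 (median 61108). The medians of Kap, Umod, Lrp2 and Aqp1 were higher in mature kidney and those of Calb1 (5034 and 2503), Aqp2 and Cdh16 lower. The fit without the set term and without the 2 arrays of high GAPDH ratio called 25 carriers (26.0%, beside 1632 of 6555 probe sets). Of the 26, 6 missed the threshold: Slc22a25 (-0.37), Slc29a1 (0.20), Slc6a2 (0.29), Slc6a11 (0.39), Slc4a3 (-0.25) and Slc7a5 (0.25). The 5 gained were Slc25a30, Slc2a4, Slc6a20a, Slc6a8 and Slco2a1. The part of either marker list in these results was not tested, and in whole kidney fewer cells of a type and less RNA per cell cannot be told apart.

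**Figure D1:**
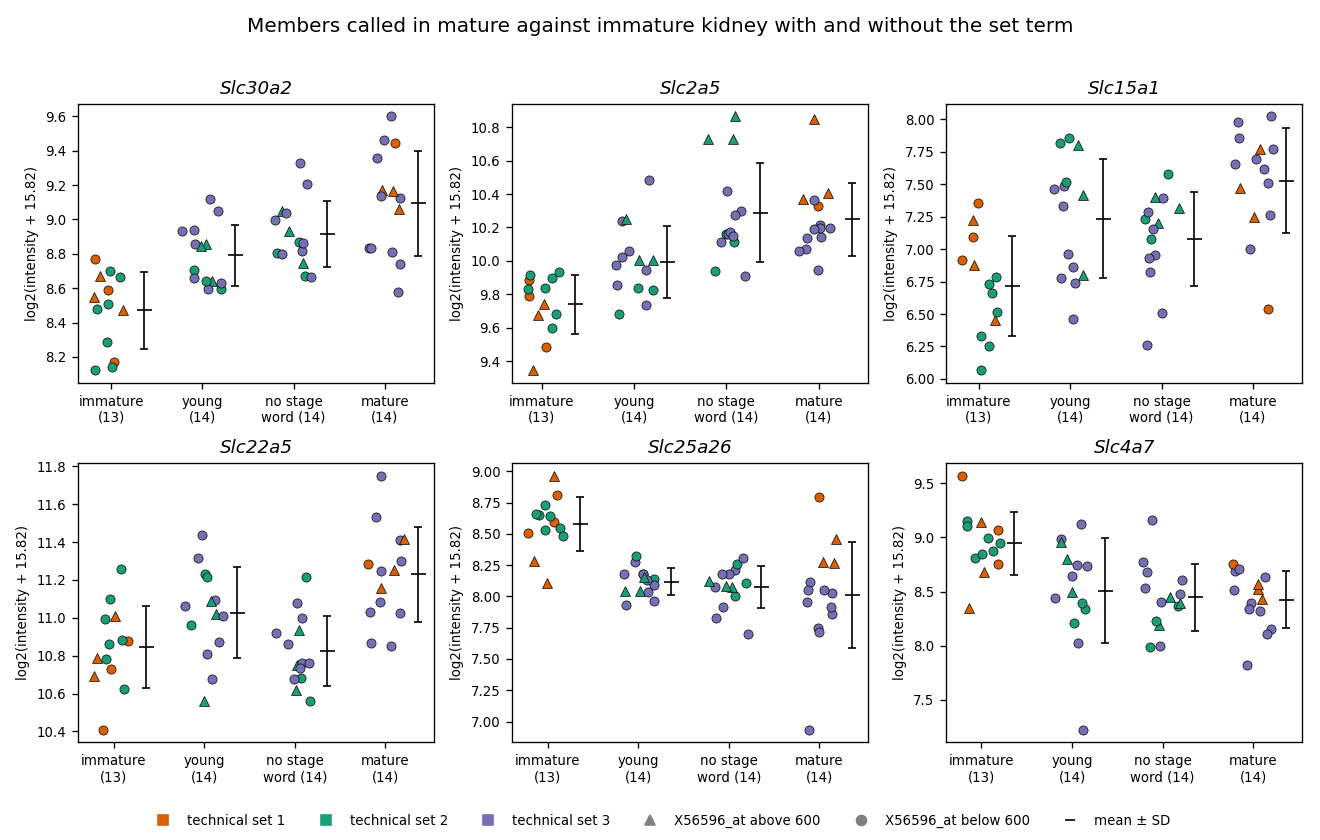
Each panel plots log2(intensity + 15.82) of a carrier on all 55 arrays by description, with colour for the technical set, triangles for arrays with X56596_at above 600, and a bar for the group mean ± SD. Slc30a2, Slc2a5, Slc15a1 and Slc22a5 lie higher in mature than in immature kidney and Slc25a26 and Slc4a7 lower, and the fructose carrier Slc2a5 is the panel in which these groups do not overlap.

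Among the sugar carriers, Slc2a5 (GLUT5, which carries fructose) read 634 to 962 (median 868) in immature and 805 to 1416 (median 1001) in young kidney. In the group without a stage word it read 947 to 1849.8 (median 1134), and in mature kidney 969 to 1828 (median 1158). All 14 mature arrays lay above all 13 immature ones, and Slc2a5 was the 1 carrier of which this was true (0.519% of all probe sets do not overlap). It rose by 0.51 ± 0.10 (log2 change ± SE, 1.42-fold, adjusted p = 8.3e-05). With the set as a term the rise was 0.61 ± 0.11 (adjusted p = 4.4e-05), and within set 1 it was 0.84. A second probe set of Slc2a5 gave 0.19 without the set term and was not called (adjusted p = 0.67). Slc5a2 (SGLT2, the sodium-coupled carrier that reclaims most filtered glucose) read 2312 to 4223 (median 3800.3) in immature and 2130.4 to 4801 (median 2955) in mature kidney. Its log2 change of -0.30 ± 0.11 (adjusted p = 0.048) was -0.04 with the set as a term (adjusted p = 0.85), while within set 1 the difference had the other sign (0.14). Slc2a4 (GLUT4, the insulin-responsive glucose carrier) fell in young against immature kidney. It read 291 to 574 (median 482) in immature and 232 to 429.5 (median 335) in young arrays, a log2 change of -0.45 ± 0.12 (adjusted p = 0.005). The set term gave -0.56 ± 0.13 (adjusted p = 0.0028). Its mature arrays read 284 to 638 (median 361), and mature against immature was not called (-0.28 ± 0.12, adjusted p = 0.07). It was called once the 2 mature arrays of high GAPDH ratio, at 638 and 325, were left out. The glucose 6-phosphate carrier Slc37a4 and the glucose carrier Slc5a1 (SGLT1) were called in the group without a stage word against immature kidney and in no other pair over all arrays without the set term, at -0.29 and 0.36. With it Slc5a1 kept the call against immature kidney (adjusted p = 0.00016) and Slc37a4 did not (adjusted p = 0.32). A second probe set of Slc5a1 was also called in mature against immature kidney (0.25, adjusted p = 0.045). The other sugar-family members, Slc2a1, Slc2a2, Slc2a3, Slc5a3, Slc5a5 and Slc5a6, were called in no pair of groups over all arrays without the set term, with mature minus immature changes between -0.25 and 0.22.

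Among the metal carriers, Slc30a2 (ZnT2, which moves zinc out of the cytosol into vesicles) had the smallest adjusted p of all 96 carriers. It read 263 to 421 (median 348) in immature and 371 to 540.2 (median 423) in young kidney. It read 390.1 to 626 (median 451) without a stage word and 366 to 760.5 (median 545) in mature kidney. Of the 14 mature arrays 12 exceeded the immature maximum. The rise was 0.62 ± 0.10 (1.54-fold, adjusted p = 1.8e-06), and 0.59 ± 0.11 with the set term (adjusted p = 7.7e-05). The iron and manganese carrier Slc11a2 (DMT1) read 1049.7 to 3425 (median 2274) in immature and 973 to 2492 (median 1099) in mature kidney and was 1.5-fold lower (log2 change -0.59 ± 0.17, adjusted p = 0.0077). Its immature arrays lay far apart by set, 1049.7 to 1703 (median 1116) in set 1 and 2274 to 3425 (median 2429) in set 2. The call was lost with the set term (-0.29, adjusted p = 0.21), and within set 1 the change was 0.16. The group without a stage word also read lower than immature kidney for Slc11a2 (-0.56 ± 0.17, adjusted p = 0.01). That call was kept with the set term (-0.57 ± 0.15, adjusted p = 0.0042). The zinc carriers Slc30a1 and Slc30a4, the iron exporter Slc40a1 (ferroportin) and the magnesium carriers Slc41a2 and Slc41a3 were called in no pair of groups over all arrays without the set term, with mature minus immature changes between -0.06 and 0.12.

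The class of organic ion, monocarboxylate, peptide and nucleoside carriers held 26 members, 22 past the filter, of which 6 rose and 2 fell in mature against immature kidney. Slc15a1 (PEPT1, which takes up di- and tripeptides with protons) read 51.2 to 148 (median 90.7) in immature and 72.5 to 216 (median 149.8) in young kidney. In the group without a stage word it read 61 to 175 (median 129), and in mature kidney 77.3 to 244 (median 183). Its mature arrays were mostly above the immature ones (10 of 14 above all 13), and the rise was 0.81 ± 0.16 (1.76-fold, adjusted p = 8.5e-05). A fit with the set term gave 0.97 ± 0.18 (adjusted p = 8.9e-05), and within set 1 the change was 0.27. A second probe set of Slc15a1 gave 0.29 without the set term and was not called (adjusted p = 0.14). Slc22a5 (OCTN2, the carnitine carrier) read 1344 to 2432 (median 1847) in immature, 1496 to 2366 (median 1720.2) in the group without a stage word and 1832 to 3429.5 (median 2419) in mature kidney. It rose by 0.38 ± 0.09 against immature (adjusted p = 0.002; 0.38 ± 0.11 with the set term, adjusted p = 0.014). It was also the 1 carrier called between mature kidney and the group without a stage word (0.40 ± 0.09, adjusted p = 0.028; 0.412% of all probe sets were called there). Slc22a18, an organic cation carrier of an imprinted chromosomal region, read 1910.1 to 3748 (median 2340.4) in immature, 1676 to 3136 (median 2354) in young and 2369.9 to 4832 (median 3147) in mature kidney. It rose against both, by 0.39 ± 0.13 (adjusted p = 0.019) and 0.44 ± 0.12 (adjusted p = 0.046). All 14 mature arrays lay above the median of the young ones and above that of the immature ones. With the set term the first comparison kept its call (adjusted p = 0.044) and the second did not (adjusted p = 0.15).

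Slco1a1 (Oatp1, an organic anion carrier of the tubule brush border) showed the widest spread of the carriers that rose. It read 159 to 1438 (median 967) in immature and 1022 to 2155 (median 1546) in young kidney. It read 686 to 2105 (median 1341) without a stage word and 319.7 to 1920.2 (median 1501) in mature kidney. Its rise in mature against immature kidney was 0.65 ± 0.25 (adjusted p = 0.049; 0.12 with the set term). In young against immature kidney it was 1.10 ± 0.25 (2.14-fold, adjusted p = 0.0013), and 0.92 ± 0.28 with the set term (adjusted p = 0.027). The lowest pair of mature arrays, at 370 and 320, were those of high GAPDH ratio. Its relative Slco1a3 read 535 to 1356 (median 1059) in immature and 1077 to 1858 (median 1345) in young kidney and rose by 0.59 ± 0.17 (adjusted p = 0.012; 0.025 with the set term). The Slco1a genes are close in sequence, and signal shared between their probe sets cannot be told apart here. The prostaglandin carrier Slco2a1 fell in young kidney. It read 582 to 1775 (median 1081) in immature and 557 to 860.2 (median 713) in young arrays (log2 change -0.67 ± 0.16, adjusted p = 0.0018; 0.078 with the set term). The nucleoside carriers Slc28a1 (CNT1) and Slc29a1 (ENT1) rose in mature kidney by 0.35 ± 0.11 and 0.34 ± 0.12, without a call once the set was a term (adjusted p = 0.59 and 0.11). Slc28a1 read 318 to 632 (median 405) in immature and 381 to 708 (median 553) in mature kidney, and Slc29a1 244 to 462 (median 352) and 314 to 1099 (median 424).

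The fallers of this class were Slc22a25 and the monocarboxylate family member Slc16a6. Slc22a25, an organic anion carrier, read 1161 to 3082 (median 1654) in immature and 286 to 2114 (median 1255) in mature kidney. It fell (log2 change -0.67 ± 0.22, adjusted p = 0.017; -0.22 with the set term, adjusted p = 0.58). Its lowest mature values, 286 and 288, came from the 2 mature arrays whose GAPDH ratio was high. Slc16a6 read 128 to 476 (median 356) and 107 to 402 (median 194) (-0.59 ± 0.19, adjusted p = 0.018; 0.25 with the set term), and in the group without a stage word it read 83.1 to 244 (median 154). That group's difference from immature kidney was -0.85 ± 0.19 (adjusted p = 0.00056), and -0.90 ± 0.18 with the set term (adjusted p = 0.00025). Slc22a13, an organic anion carrier that handles urate and nicotinate, fell in young against immature kidney. It read 272 to 813 (median 517) in immature and 119 to 440.3 (median 338) in young arrays, a log2 change of -0.72 ± 0.18 (adjusted p = 0.003). The set term gave -0.99 ± 0.15 (adjusted p = 5.4e-06). The remaining 11 members past the filter (Slc10a2, Slc15a2, Slc15a4, Slc16a1, Slc16a12, Slc16a3, Slc16a7, Slc16a8, Slc28a2, Slc29a2 and Slco1a4) were called in no pair of groups over all arrays without the set term, with mature minus immature changes between -0.30 and 0.26. With it the monocarboxylate family members Slc16a7 and Slc16a12 were called. Slc16a7 changed by -0.55 ± 0.17 in mature against immature kidney (adjusted p = 0.021), and Slc16a12 by -0.70 ± 0.21 in the group without a stage word against immature (adjusted p = 0.011).

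Of the amino acid carriers 8 of 10 passed the filter, and 1 rose in mature against immature kidney. Slc7a5 (LAT1, which exchanges large neutral amino acids) read 273 to 537 (median 322) in immature and 356 to 611 (median 445) in mature kidney (0.30 ± 0.11, adjusted p = 0.046), and 0.04 ± 0.11 with the set term (adjusted p = 0.84). Slc3a1 (rBAT, the heavy chain of the cystine and dibasic amino acid carrier) was called in young against immature kidney: it read 5096 to 8796 (median 7686) in immature and 8423 to 13418 (median 10879.8) in young kidney, where 13 of 14 arrays lay above all immature ones. The rise was 0.56 ± 0.14 (adjusted p = 0.0026), and 0.15 ± 0.11 with the set term (adjusted p = 0.48). Slc3a2 (4F2hc, the heavy chain that partners Slc7a5) fell in young kidney, with a log2 change of -0.42 ± 0.16 (adjusted p = 0.046). The call was lost with the set term (-0.09, adjusted p = 0.77), and a second probe set gave -0.05 (adjusted p = 0.89). It read 2842 to 4752 (median 3358) in immature and 1526 to 3092 (median 2793) in young arrays. The glutamate carriers Slc1a1, Slc1a2 and Slc1a3 and the arginine and lysine carriers Slc7a1 and Slc7a3 were called in no pair of groups over all arrays without the set term, with mature minus immature changes between -0.31 and 0.20. Slc1a3 was called lower with the set term in the group without a stage word than in immature kidney (-0.63 ± 0.22, adjusted p = 0.034). A second probe set of Slc1a1 was called higher in young than in immature kidney (0.97, adjusted p = 0.014).

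Of the neurotransmitter families 13 of 17 members passed the filter, and 4 rose in mature against immature kidney. Slc6a18 belongs to this family by sequence but is a neutral amino acid carrier of the tubule brush border that takes up glycine. It read 878 to 1691 (median 1471) in immature and 1453 to 2290.0 (median 1836) in young kidney. In the group without a stage word it read 1799.9 to 2965 (median 2212), and in mature kidney 1273 to 3218 (median 1808). All 14 arrays without a stage word lay above all immature ones (log2 change 0.66 ± 0.10, adjusted p = 3.6e-06). The set term gave 0.50 ± 0.11 (adjusted p = 0.00079). Mature against immature gave 0.41 ± 0.10 (adjusted p = 0.0025) and, with the set term, 0.33 ± 0.11 (adjusted p = 0.045). The highest mature values, 3009 and 3218, were those of the arrays of high GAPDH ratio, and the other mature arrays read 1273 to 2092. Without those 2 arrays the fit with the set term gave 0.25 ± 0.09, and the call was lost (adjusted p = 0.059). The glycine carrier Slc6a9 (GlyT1) read 130.0 to 566 (median 203) in immature and 195 to 954 (median 461) in mature kidney (0.80 ± 0.24, adjusted p = 0.011; 0.11 with the set term). The noradrenaline carrier Slc6a2 read 138 to 306 (median 209.9) and 188 to 406 (median 271) (0.35 ± 0.13, adjusted p = 0.039). The GABA carrier Slc6a11 read 224 to 576 (median 289) and 262 to 642 (median 478) (0.41 ± 0.15, adjusted p = 0.04). These 3 lost their calls with the set term and had changes of the other sign within set 1 (-0.03, -0.06 and -0.29). The vesicular acetylcholine carrier Slc18a3 rose in young kidney (0.48 ± 0.13, adjusted p = 0.0049; 0.21 with the set term, adjusted p = 0.23), with values of 223 to 394 (median 291) in immature and 306 to 559.7 (median 430.4) in young arrays. The creatine carrier Slc6a8, the imino acid carrier Slc6a20a and the dopamine carrier Slc6a3 were called in no pair of groups over all arrays. Nor were the serotonin carrier Slc6a4, the glycine carrier Slc6a5, the proline carrier Slc6a7, and the vesicular carriers Slc18a2 and Slc32a1. This held with and without the set term. Without the 2 arrays of high GAPDH ratio Slc6a8 and Slc6a20a were called in mature against immature kidney, with that term and without it. Slc6a8 read 1237 and 1894 on those 2 arrays and 2112 to 3206 on the other mature ones. Slc6a20a read 232 and 290 there, beside 535 to 1034. Of 19 carriers best known from nerve cells 15 passed the filter. Of these, 3 rose in mature against immature kidney (Slc6a9, Slc6a2 and Slc6a11), beside 10.3% of all probe sets. The median change of the 15 was 0.20 beside 0.04 for all probe sets. With the set term these 3 were not called, and the median was -0.08 beside -0.04. Nerve markers (Snap25, Gap43, Nefl and Syt1, 3 of 4 past the filter) summed to 222 to 489 (median 318) in immature and 257 to 1014 (median 384) in mature kidney, and their part in the result was not tested.

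Ion and acid-base carriers held 17 members, 13 past the filter, with 1 riser and 3 fallers in mature against immature kidney. Slc4a7 (NBCn1, an electroneutral sodium bicarbonate carrier) read 310.3 to 745 (median 479.5) in immature and 133 to 541 (median 364) in young kidney. It read 238 to 556 (median 328) without a stage word and 209.5 to 415 (median 340.0) in mature kidney. All 14 mature arrays lay below the immature median, and the log2 change of -0.52 ± 0.14 (adjusted p = 0.0033) was -0.55 ± 0.16 with the set term (adjusted p = 0.014) and -0.36 within set 1. Slc9a3 (NHE3, the sodium-proton exchanger of the proximal tubule brush border) read 275 to 1088 (median 849.6) in immature and 166 to 656 (median 352) in mature kidney (-0.84 ± 0.23, 1.79-fold lower, adjusted p = 0.0058). With the set term its difference was -0.38 ± 0.20 (adjusted p = 0.23) and within set 1 it was -0.03. The group without a stage word also read lower than immature kidney for Slc9a3 (-0.91 ± 0.23, adjusted p = 0.0024). That call was kept with the set term (-0.89 ± 0.20, adjusted p = 0.0008). The chloride-bicarbonate exchanger Slc4a3 (AE3) read 245 to 557 (median 343) in immature and 153 to 374 (median 270.1) in mature kidney (-0.33 ± 0.12, adjusted p = 0.043; 0.22 with the set term). The phosphate carrier Slc20a2 (PiT-2) read 247 to 467 (median 335) and 278 to 647 (median 485) and rose by 0.46 ± 0.12 (adjusted p = 0.004; 0.29 with the set term). Slc4a1 (AE1, the anion exchanger of red cells and of acid-secreting collecting duct cells) was called in young against immature kidney (0.49 ± 0.12, adjusted p = 0.0034; 0.2 with the set term), at 426 to 675 (median 503) in immature and 479 to 997 (median 767) in young. The summed erythroid markers had a median of 8779 in immature and 7070 in young kidney, and their part in the result was not tested. The sodium-calcium exchanger Slc8a2 was called in the group without a stage word against immature kidney (0.34; adjusted p = 0.29 with the set term). Slc12a2, Slc12a4, Slc12a7, Slc26a2, Slc4a2, Slc4a4 and Slc8a3 were called in no pair of groups over all arrays without the set term, with mature minus immature changes between -0.11 and 0.66. The bicarbonate carrier Slc4a4 was called lower with that term in the group without a stage word than in immature kidney (-0.57 ± 0.15, adjusted p = 0.0059). Other probe sets of Slc12a2 (NKCC1, a sodium, potassium and chloride carrier) were called: the first was higher in mature (0.42, adjusted p = 0.0082) and in young kidney (0.41, adjusted p = 0.013) than in immature, and another was higher in young (0.84, adjusted p = 0.0058).

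The last class gathers mitochondrial, organelle, lipid, vitamin and urea carriers, 23 members with 22 past the filter, of which 3 rose and 2 fell in mature against immature kidney. Slc25a26, which brings S-adenosylmethionine into mitochondria, read 261 to 484 (median 372) in immature and 229 to 304 (median 265) in young kidney. In the group without a stage word it read 192 to 301 (median 258), and in mature kidney 106 to 429 (median 247). The young and stage-less arrays lay at or below 304 and all below the immature median. The log2 change in mature kidney was -0.57 ± 0.11 (adjusted p = 6.0e-05). A fit with the set term gave -0.42 ± 0.11 (adjusted p = 0.0086), and within set 1 the change was -0.10. Slc25a4 (ANT1, the mitochondrial ADP/ATP exchanger) read 2537 to 4448 (median 3587) in immature, 2446 to 4330.0 (median 3215) in young and 766 to 3601 (median 2689) in mature kidney. Its log2 changes in mature against immature and against young kidney were -0.56 ± 0.16 (adjusted p = 0.0074) and -0.56 ± 0.16 (adjusted p = 0.047). Once the set was a term they were -0.33 (adjusted p = 0.2) and -0.36 (adjusted p = 0.22), and neither was called. Its lowest mature values, 883 and 766, were those of the 2 arrays of high GAPDH ratio, and the other 12 mature arrays read 1817 to 3601. Slc25a23, a calcium-regulated carrier of ATP-magnesium and phosphate, read 407 to 616 (median 493) in immature and 390.4 to 953 (median 715) in mature kidney (0.42 ± 0.12, adjusted p = 0.0091). With the set term the rise was 0.40 ± 0.14 (adjusted p = 0.046). The dicarboxylate carrier Slc25a10 rose by 0.26 ± 0.09 (adjusted p = 0.037), with values of 2650.3 to 3540.2 (median 3123) in immature and 2404 to 5206 (median 4008) in mature arrays, and lost its call with the set term (adjusted p = 0.64). The urea carrier Slc14a1 (UT-B, of red cells and descending vasa recta) read 242 to 472 (median 351) in immature and 351 to 621 (median 511) in mature kidney (0.49 ± 0.12, adjusted p = 0.0014; 0.12 with the set term). Its relative Slc14a2 (UT-A, the urea carrier of the collecting duct and thin limb) was called in young against immature kidney (0.38 ± 0.13, adjusted p = 0.039; 0.68 with the set term). Its second probe set had the other sign, at -0.56 in young (adjusted p = 0.11) and -1.03 in mature against immature kidney (adjusted p = 0.0018), so the direction for Slc14a2 differed between its probe sets. The remaining 16, Slc19a1, Slc23a3, Slc25a1, Slc25a11, Slc25a14, Slc25a17, Slc25a20, Slc25a3, Slc25a30, Slc25a5, Slc27a1, Slc27a2, Slc35a1, Slc35b1, Slc44a4 and Slc52a3, were called in no pair of groups over all arrays without the set term, with mature minus immature changes between -0.31 and 0.24. With it Slc27a1, a fatty acid carrier, was called higher in mature than in immature kidney (0.34 ± 0.10, adjusted p = 0.022) and in the group without a stage word (0.42 ± 0.10, adjusted p = 0.0028). The riboflavin carrier Slc52a3 was called lower in that group than in immature kidney (-0.41 ± 0.14, adjusted p = 0.034). Without the 2 arrays of high GAPDH ratio Slc25a30 was called in mature against immature kidney, with the set term and without it. It read 721 and 686 on those 2 arrays and 1285 to 2420 on the other mature ones. A second probe set of Slc25a14 was called lower than in immature kidney both in mature kidney (-1.18, adjusted p = 0.0014) and in the group without a stage word (-0.91, adjusted p = 0.012).

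**Figure D2:**
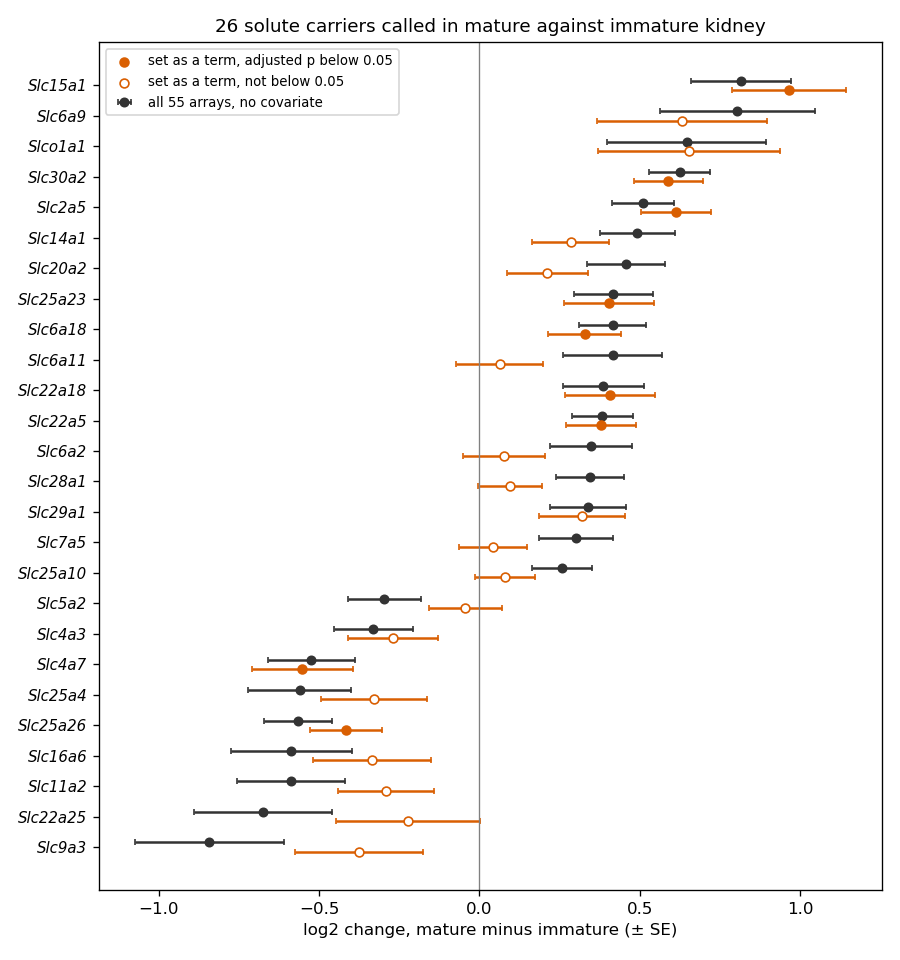
The log2 change (mature minus immature, ± SE) of each of the 26 called carriers is drawn in black for the fit of all 55 arrays and in orange with the technical set as a term, filled where the adjusted p stayed below 0.05. Filled orange points mark 9 carriers, from Slc15a1 at 0.97 to Slc4a7 at -0.55, and all 26 orange points lie on the side of 0 of their black ones.

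The other pairs of descriptions gave fewer or overlapping calls, and pairs that share a group are not independent. Young against immature kidney had 19 called carriers, 12 higher (12.5% beside 9.47% of all probe sets) and 7 lower (7.29% beside 9.21%), and with the set term 7 (7.29% beside 8.89%): Slco1a1, Slco1a3, Slc15a1, Slc30a2 and Slc2a5 higher, Slc22a13 and Slc2a4 lower. Without the set term Slc15a1 rose there by 0.52, and Slc25a26 (-0.46) and Slc4a7 (-0.44) fell. The group without a stage word against immature kidney had 27, 17 higher (17.7% beside 12.7%) and 10 lower (10.4% beside 14.4%), and 19 with the set term (19.8% beside 20%). Its 5 largest rises were Slco1a1 (0.87), Slc3a1 (0.68), Slc6a18 (0.66), Slc2a5 (0.55) and Slco1a3 (0.54). The 5 largest falls were Slc9a3 (-0.91), Slc16a6 (-0.85), Slc22a25 (-0.66), Slc2a4 (-0.59) and Slc11a2 (-0.56). Of these, Slco1a1, Slc3a1 and Slc22a25 lost their calls with the set term. Mature against young kidney had 2 (2.08% beside 1.8%), Slc22a18 and Slc25a4, and neither was called with the set term (23 carriers had an unadjusted p under 0.05). Without the 2 arrays of high GAPDH ratio the changes were 0.40 for Slc22a18 (adjusted p = 0.14) and -0.31 for Slc25a4 (adjusted p = 0.23), and limma called 0 carriers (13 at an unadjusted p under 0.05). Mature kidney against the group without a stage word had 8 called carriers with the set term (8.33% beside 5.26%): Slc22a5, Slc16a6, Slc16a12 and Slc37a4 higher in mature, Slc16a7, Slc8a2, Slc5a1 and Slc3a1 lower. Between the young group and the group without a stage word limma called 0 of 96 carriers over all arrays (11 had an unadjusted p under 0.05, and 0.229% of all probe sets were called). The fit with the set term and without those 2 arrays called 11 carriers in young (11.5% beside 15.5%) and 30 in the group without a stage word (31.2% beside 28.8%) against immature kidney. It called 5 between the group without a stage word and young kidney (5.21% beside 3.83%), 14 between mature kidney and that group (14.6% beside 13%) and 0 between mature and young (16 at an unadjusted p under 0.05; 1.51% of all probe sets).

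Within single technical sets the same pairs gave other counts. In set 2, 27 carriers were called in young against immature (28.1% beside 29.3%), 39 in the group without a stage word against immature (40.6% beside 43.4%) and 23 between that group and young (24.0% beside 27.1%). In set 3 limma called 0 carriers between the young group and the group without a stage word (2 at an unadjusted p under 0.05; 0% of all probe sets) and 0 in mature against young (6 at an unadjusted p under 0.05; 0.442%). Slc4a4 (NBCe1, the basolateral sodium bicarbonate carrier of the proximal tubule) shows how far the sets lay apart. In young kidney it read 1177 to 1667 (median 1606) in set 2 and 3807 to 4958 (median 4513) in set 3, and in the group without a stage word 872 to 1273 (median 1137) and 4064 to 5105 (median 4339). The sets did not overlap in either group. Slc3a1 in mature kidney read 4657 to 5787 (median 5090.0) in set 1 and 4845 to 13891 (median 11349) in set 3, and Slc9a3 in immature kidney 275 to 537 (median 345) in set 1 and 849.6 to 1088 (median 924) in set 2. Slc22a13 read 552 to 813 (median 621) in the immature and 236 to 349.6 (median 296) in the mature arrays of set 1, with no overlap, and it was the carrier called within that set (-1.14 ± 0.18, adjusted p = 0.013). Over all arrays its difference was -0.23 ± 0.18 (adjusted p = 0.36) and with the set term -0.73 ± 0.15 (adjusted p = 0.00067). The lactate carrier Slc16a7 (MCT2) at -0.55 ± 0.17 (adjusted p = 0.021) and the fatty acid carrier Slc27a1 at 0.34 ± 0.10 (adjusted p = 0.022) were likewise called in mature against immature kidney with the set term and not without it.

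**Figure D3:**
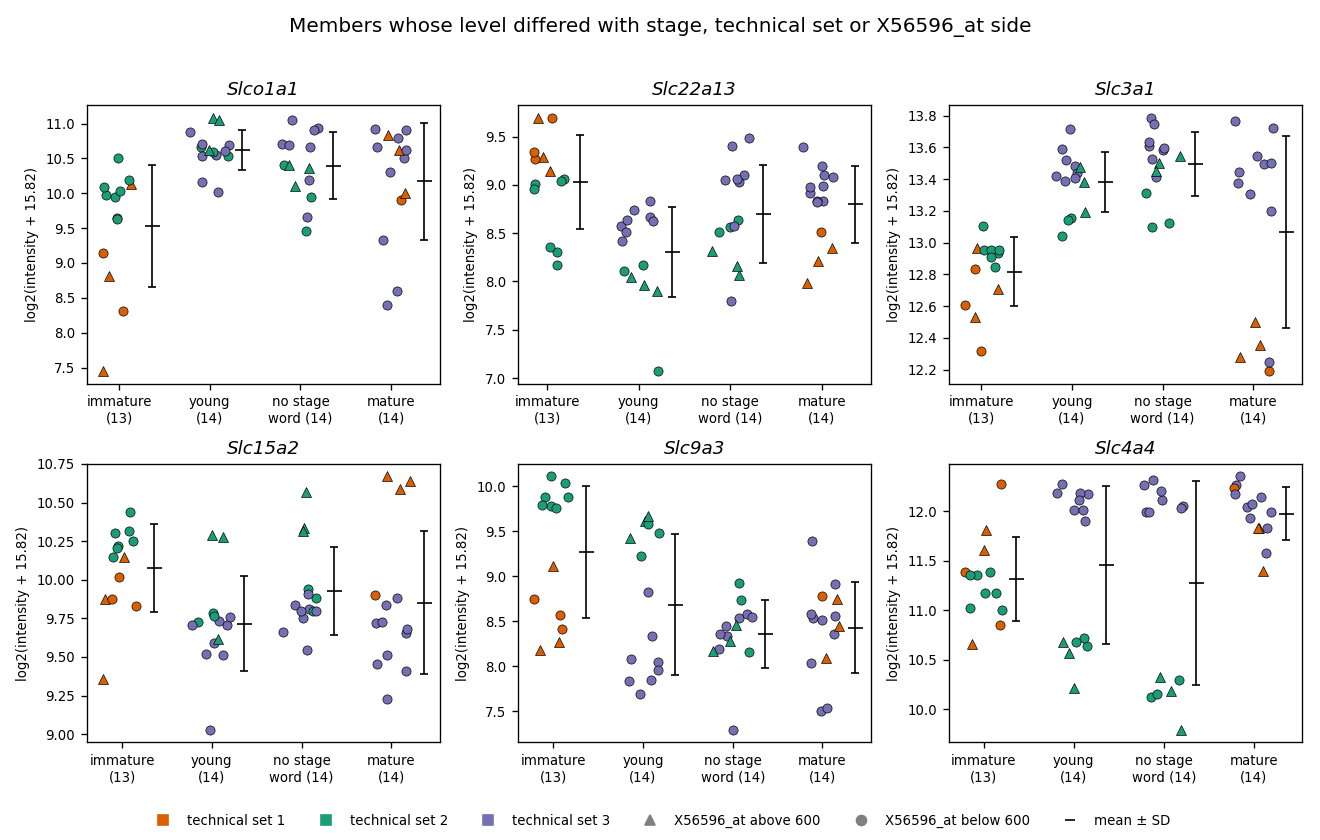
Log2(intensity + 15.82) of 6 carriers on all 55 arrays is drawn by description, with colour for the technical set, triangles for X56596_at above 600, and a bar for mean ± SD. In the Slc4a4 panel the young and stage-less arrays of set 2 and set 3 form separate clouds, and in the Slc15a2 panel the 3 mature triangles lie above all mature circles. Those triangles are of set 1, and 10 of the 11 mature circles are of set 3.

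Stage was also compared on each side of the X56596_at threshold. On the 12 arrays above 600, 9 carriers were called in mature against immature kidney (3 against 3 arrays; 9.38% beside 5.71% of all probe sets), and on the 43 below it 27 (11 against 10 arrays; 28.1% beside 28.3%). Slc2a5 and Slc30a2 were the 2 called on both sides. Above 600 the immature values of Slc2a5 were 634, 804 and 841 and the mature ones 1306, 1344 and 1828 (0.95 ± 0.18, adjusted p = 0.0097). Below 600 they were 699.7 to 962 (median 896) and 969 to 1300.4 (median 1154) (0.38 ± 0.09, adjusted p = 0.0014). For Slc30a2 they were 339, 359 and 392 in immature and 519, 558 and 561 in mature kidney above 600 (0.57 ± 0.15, adjusted p = 0.046). Below 600 they were 263 to 421 (median 344) and 366 to 760.5 (median 543) (0.64 ± 0.12, adjusted p = 0.00011). The groups of 3 do not overlap for either gene. Both genes were picked by their calls on these same arrays, and the share of all probe sets without overlap there was not counted.

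The other carriers called above 600 were Slc16a1 (MCT1, a lactate carrier; 1.22), Slc1a2 (a glutamate carrier; 0.92), Slc6a20a (0.88), Slc25a23 (0.76) and Slc5a1 (0.62), which were higher in mature kidney. Slc22a13 (-1.20) and the mitochondrial phosphate carrier Slc25a3 (-0.73) were lower. Below 600 the differences of these 7 were -0.66, -0.05, -0.10, 0.32, -0.08, 0.05 and -0.02, none of them called. Slc16a1 above 600 read 396, 461 and 665 in immature and 1108, 1204 and 1206 in mature kidney. Below 600 it read 347 to 1619 (median 1282) in immature and 75 to 1466 (median 993) in mature kidney. Slc15a2 (PEPT2, the second proton-coupled peptide carrier) read 641, 924 and 1116 in immature and 1520.2, 1579.5 and 1613 in mature kidney above 600 (0.84 ± 0.23, adjusted p = 0.054, not called). Below 600 it read 894 to 1373 (median 1169) and 585 to 938 (median 803) (-0.52 ± 0.10, adjusted p = 9.3e-05). Whether a stage change differed between the sides was not tested. Above 600 both groups lay in set 1. Below 600, 10 of the 11 mature arrays lay in set 3 and 7 of the 10 immature ones in set 2. Side and set can therefore be told apart only in part in this comparison. Below 600 the 5 called rises furthest from 0 were Slc6a9 (0.97), Slc15a1 (0.87), Slc4a4 (0.76), Slc30a2 (0.64) and Slc14a1 (0.53). The 5 falls were Slc9a3 (-1.07), Slc22a25 (-0.80), Slc11a2 (-0.73), Slc25a4 (-0.69) and Slc25a26 (-0.69). With the set as a term the count below 600 was 5 (5.21% beside 6.36% of all probe sets). The count of 9 above 600 rested on few arrays. It was 3 without mature replicate 4, and 5 without young replicate 1, mature replicate 12 or stage-less replicate 12. Calls among all 6555 probe sets fell as well, from 374 to 210 without mature replicate 4. They were 259, 242 and 264 without the other arrays named. Without immature replicate 2 both counts rose, to 10 carriers and 479 probe sets.

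**Figure D4:**
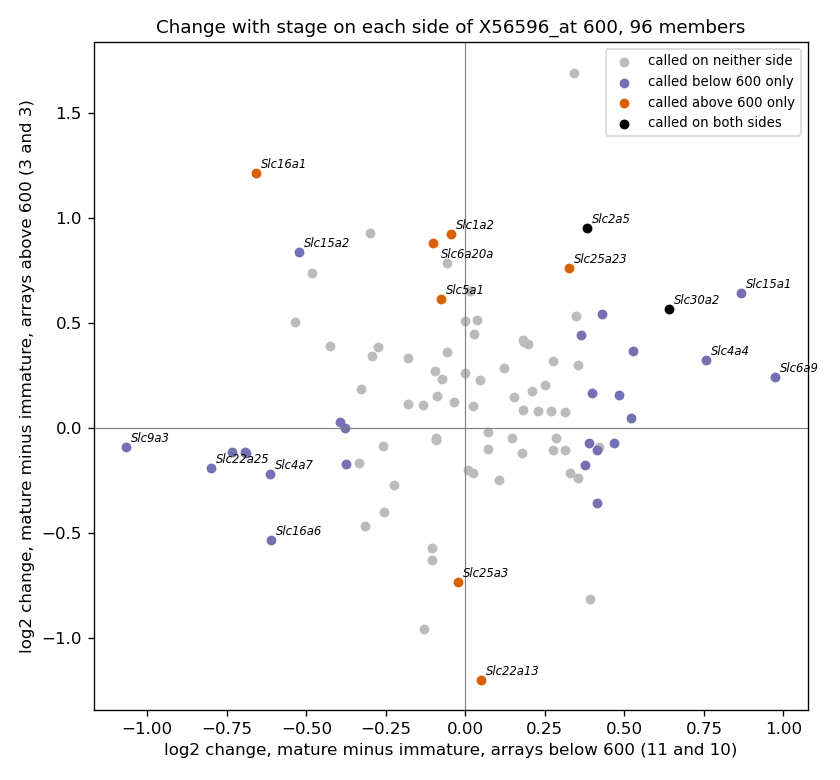
Each point is a carrier, placed by its log2 change (mature minus immature) on the arrays with X56596_at below 600 (horizontal, 11 and 10 arrays) and above 600 (vertical, 3 and 3), and coloured by the side on which it was called. Slc2a5 and Slc30a2, in black, were called on both, and Slc22a13 lies at -1.20 above 600 and 0.05 below. Above 600 both groups lie in set 1, and below 600 most mature and immature arrays lie in different sets.

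In the other pairs the side above 600 gave 15 called carriers in young against immature kidney (15.6% beside 15.6%) and the side below 21 (21.9% beside 19.2%). The count of 15 was 6 without young replicate 1, 9 without young replicate 14 and 10 without young replicate 2. It was up to 19 when another array was left out. Calls among all probe sets, 1023 with every array, were then 563, 549 and 556, and 1035 at the count of 19. Above 600 the organic anion carriers Slco1a1 (2.12 ± 0.50) and Slco1a3 (1.16 ± 0.27) and the zinc exporter Slc30a1 (2.33 ± 0.62) were higher in young kidney. Slc22a13 (-1.41 ± 0.18), the glucose carrier Slc2a1 (GLUT1; -1.14 ± 0.30) and Slco2a1 (-1.06 ± 0.20) were lower. Slc9a3 was called on both sides, at 1.05 ± 0.25 above 600 and -1.05 ± 0.25 below, and so was Slc11a2, at 0.67 ± 0.20 and -0.60 ± 0.19. For each gene the sign was positive above 600 and negative below. Above 600 the immature arrays all lie in set 1 and the young ones in set 2, so stage and set cannot be told apart there. Mature against young kidney gave 8 called carriers above 600 (8.33% beside 7.35%): Slc2a1 (1.56), Slc4a4 (1.20) and Slc22a18 (1.05) higher in mature. Lower were Slc9a3 (-1.14), Slc3a1 (-0.97), Slc16a12 (-0.90), Slc11a2 (-0.78) and Slc25a4 (-0.70). The count of 8 was 1 without young replicate 1 and 2 without young replicate 2, young replicate 14 or mature replicate 8. It was 15 without immature replicate 2. Calls among all probe sets, 482 with every array, were then 118, 131, 100, 153 and 782. The mature and young arrays above 600, too, differ in set as they differ in stage. Below 600 limma called 0 there (10 at an unadjusted p under 0.05; 0.732% of all probe sets). The group without a stage word gave 11 called carriers against immature above 600 (11.5% beside 12.7%) and 33 below (34.4% beside 29.5%). Above 600 it gave 1 against young (1.04% beside 1.21%), Slc9a3 at -1.26, and 3 against mature (3.12% beside 2.23%), with Slc4a4 (1.58) and Slc25a30 (0.82) higher in mature and Slc3a1 (-1.12) lower. Leaving out 1 array at a time gave 7 to 14 against immature, 0 to 3 against young and 1 to 4 against mature. The 7 came without replicate 4, 8 or 12 of the group without a stage word. Calls among all probe sets ran from 464 to 1098, 7 to 170 and 29 to 312, beside 834, 79 and 146 with every array.

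Levels on the 2 sides are a description without a test. The arrays above 600 came from set 1 in immature and mature kidney and from set 2 in the other groups. In each description most arrays below 600 came from another set than those above it. Side and set can therefore be told apart only in part. The 3 arrays above 600 did not overlap those below for 2 carriers in immature kidney (2.52% of all probe sets), Slc16a3 and Slc1a2, both lower above 600. They did not overlap for 7 in young kidney (5.75%), with Slc25a30 and Slco1a3 higher above 600 and Slc18a3, Slc22a18, Slc23a3, Slc2a4 and Slco2a1 lower. In the group without a stage word there were also 7 (5.26%), Slc15a2, Slc27a2, Slc2a5, Slc44a4, Slc6a20a and Slco1a3 higher and Slc16a3 lower. In mature kidney there were 6 (5.08%), Slc15a2, Slc25a30, Slc2a5 and Slc5a1 higher and Slc22a13 and Slc2a4 lower. No carrier was separated in the same direction in all 4 descriptions (0 of 96, beside 0.351% of all probe sets). The medians differed in 1 direction throughout for 13 of 96 carriers (13.5%, beside 17.0% of all probe sets). Of these the widest smallest gaps were those of Slc18a3 (lower above 600 by 0.35 to 0.62 on the log2 scale), the vitamin carrier Slc5a6 (higher by 0.27 to 1.15), Slc1a2 (lower by 0.22 to 0.83), Slc3a2 (higher by 0.17 to 0.59) and Slc4a1 (lower by 0.16 to 0.49).

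Of 14 measured carriers that textbooks place in the proximal tubule, all past the filter, 5 rose and 2 fell in mature against immature kidney. The risers were Slc15a1, Slc20a2, Slc22a5, Slc28a1 and Slco1a1, and the fallers Slc5a2 and Slc9a3. Of all probe sets 10.3% rose and 14.1% fell. The median change of the 14 was 0.22 beside 0.04 for all probe sets. With the set term 2 rose, Slc15a1 and Slc22a5, beside 326 of all 6555 probe sets. The median of the 14 was then 0.19 beside -0.04. Beside the carriers, 11 genes that work with them were measured: subunits and regulators of the sodium pump, carbonic anhydrases, scaffolds and chaperones of carriers, and tubule transcription factors. Hnf4a, a transcription factor of proximal tubule and liver, rose by 0.80 ± 0.17 (adjusted p = 0.00042) and by 1.11 ± 0.16 (adjusted p = 1.6e-06) with the set term. Pdzk1, a scaffold that binds brush border carriers, rose by 0.48 ± 0.12 (adjusted p = 0.0034), and Fxyd4, a sodium pump regulator of the collecting duct, changed by -0.55 ± 0.11 (adjusted p = 0.00014). Car2, the cytosolic carbonic anhydrase, changed by -0.45 ± 0.12 (adjusted p = 0.004) and the pump subunit Atp1b3 by -0.39 ± 0.12 (adjusted p = 0.017), and both lost their calls with the set term. The other 6 (Atp1b1, Atp1b2, Bsg, Car4, Cltrn and Fxyd2) missed the threshold without the set term for mature against immature kidney. With that term Atp1b1 changed by -0.64 ± 0.22 (adjusted p = 0.045) and Fxyd2 by -0.41 ± 0.11 (adjusted p = 0.0063).

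Likeness among carriers was described for the 3 with the smallest F-test p, by Pearson's r of log2 values over the 55 arrays, which share the technical sets. Means of the descriptions were not removed, so r also holds the differences among descriptions by which these 3 were picked. Slc30a2 was most like Slc2a5 (r = 0.58, and 0.59 after removing set means), Slc29a2 (0.54 and 0.41) and Slc29a1 (0.50 and 0.44). Slc2a5 was most like Slc30a2, Slc6a18 (0.45 and 0.44) and the choline carrier family member Slc44a4 (0.42 and 0.49). Slc6a18 was most like the glutamate carrier Slc1a1 (0.52 and 0.50), the mitochondrial citrate carrier Slc25a1 (0.45 and 0.51) and Slc2a5. Other probe sets of the called carriers were compared for the 3 pairs with immature kidney. In mature kidney 5 called carriers had 7 others past the filter, all of the same sign and 1 of them called. The called one was of Slc25a10 (0.50, adjusted p = 0.029). Those of Slc2a5 (0.19, adjusted p = 0.67), Slc15a1 (0.29, adjusted p = 0.14) and Slc14a1 (0.07, adjusted p = 0.78) showed smaller rises than the probe sets used. In young kidney 8 had 9, of which 3 had the other sign and 0 were called. In the group without a stage word 11 had 14, of which 3 had the other sign and 4 were called. In young against immature kidney the second probe sets of Slco2a1 and Slc2a4 gave -0.08 (adjusted p = 0.76) and -0.15 (adjusted p = 0.56). The other sign was seen for Slc14a2, for Slc4a1 (-0.27 in young), for Slc15a1 in young (-0.25, adjusted p = 0.23) and for Slc14a1 without a stage word (-0.22). Among carriers that were not called, other probe sets were called for Slc12a2, Slc14a2, Slc25a14 and Slc5a1 in mature, Slc12a2, Slc1a1 and Slc25a10 in young, and Slc12a2 and Slc25a14 without a stage word. The 16 carriers below the filter, which were not tested, were Slc10a1, Slc12a5, Slc17a7, Slc18a1, Slc1a6, Slc22a3, Slc24a2, Slc35f6, Slc37a1, Slc6a15, Slc6a17, Slc7a2, Slc9a2, Slc9a4, Slco1a5 and Slco2b1.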

How the data were processed

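The deposited values are intensities of 8799 probe sets on 55 1-colour Affymetrix arrays, judged to be linear from their range and spread. How the authors summarised and scaled them is not given in the sources used here. That scaling was kept. An offset of 15.82 (0.1 of the median) was added and log2 taken, so fold changes of dim genes are understated. The 59 control probe sets and those with a mean log2 value below the 25th percentile (5.91) were left out. Symbols came from the platform's annotation (7018 probe sets with 1 symbol, 308 with several, 1473 with none), updated for 6994 through RefSeq (GRCr8). 1 model of 4 groups was fitted with limma 3.58.1 (R 4.3.3) and tested 2-sided with Benjamini-Hochberg adjustment over 6555 probe sets at 0.05. Technical sets came from Ward clustering of 42 control probe sets, with the number of sets fixed at 3. Mature against immature kidney was also simulated with 6555 probe sets. With no difference between sets, 44.8% of changes of 0.5 (log2), 92.5% of 1 and 100% of 2 were recovered over all arrays. On the arrays with X56596_at above 600 the shares were 0%, 13.4% and 75.8%, again with no simulated difference between sets. With simulated set differences and the set as a term they were 32.8%, 85.1% and 100% over all arrays. False calls numbered 7, 4 and 9 in these runs.

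Named were every carrier called in mature against immature kidney (up to 30), the 5 largest rises and falls in each other pair and on each side, and the 5 widest gaps between sides; carriers outside this rule were chosen after their values were seen. The genes, classes and lists were chosen with earlier results of these data known. Alternatives changed the scaling, offset, filter, technical set, side and arrays.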

Additional observations from a re-analysis of the deposited data

How the results depend on the processing

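No paired analysis was possible because the labels give no replicate numbers that groups share. Another scaling, offset or filter, or X56596_at side as a term, left the directions of all 49 comparisons named for single carriers over all arrays, with 1 to 5 of them losing the call under median scaling, no filter, a halved offset or quantile normalisation. The technical set as a term gave 12 called carriers in mature against immature (12.5% beside 12.6% of all probe sets). It gave 7 in young against immature (7.29% beside 8.89%) and 0 in mature against young (86 of 6555 probe sets). It gave 8 in mature against no stage word (8.33% beside 5.26%) and 21 over the 4 groups (21.9% beside 1347 of 6555). Below 600 that term gave 5 in mature against immature (5.21% beside 6.36%). Without mature replicates 1 and 9 there were 25 in mature against immature (1632 of 6555 probe sets). There were 0 in mature against young (59 probe sets) and 2 in mature against no stage word (23 probe sets). With the set term too there were 19 in mature against immature (18.4% of all probe sets) and 11 in young against immature (15.5%). No stage word against immature then had 30 (28.8%), and mature against young 0 (1.51%). No stage word against young had 5 (3.83%) and mature against no stage word 14 (13%). Mature against young had 0 with no filter (101 of 8740 probe sets) and 1 under median scaling (81 of 6555). Under median scaling mature against no stage word had 0 (15 of 6555). Leaving out 1 array at a time above 600 gave 3 to 10 called carriers in mature against immature (210 to 533 of 6555 probe sets). The sign turned within set 1 for Slc11a2 (0.16), Slc6a9 (-0.0319), Slc28a1 (-0.0486), Slc25a10 (-0.16), Slc6a2 (-0.0639), Slc6a11 (-0.29), Slc7a5 (-0.12) and Slc5a2 (0.14), and above 600 for Slc28a1 (-0.0704), Slc25a10 (-0.17), Slc7a5 (-0.10) and Slc5a2 (0.000285) in mature, Slc4a7 (0.0275) in young and Slc11a2 (0.11) in the group without a stage word, all against immature. The cause was not tested, and these fits hold fewer arrays by construction.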
